A study of Mus with 51 samples.

Results

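Interleukin-2 (Il2), the 3 chains of its receptor (Il2ra, Il2rb and Il2rg), the kinase Jak3 and the transcription factors Stat5a and Stat5b were followed through all groups of an RNA sequencing series of mouse CD4 T cells. The 7 genes were taken by symbol from a table of read counts with 34923 features, and all 7 were among the 17211 genes with enough counts to be tested. Cells were sorted from lymph nodes of 1 strain, B10.A-Rag2tm1FwaH2-T18aTg mice with the 5C.C7 receptor transgenes, written (Tcra5CC7,Tcrb5CC7)lwep, whose T cells bear a fixed receptor for moth cytochrome c peptide (MCC). The sorting phenotypes were MCC+GP CD69-hi, MCC CD69-hi, MCC+GP CD69-lo, MCC CD69-lo, GP and no peptide (NP), where GP is the self-peptide of the design and CD69 is a surface protein that appears early after T cell receptor signalling. Each phenotype was collected at 1, 6 and 24 h, which gave 18 groups and 51 libraries; NP, GP and MCC CD69-lo at 6 h held 2 libraries each and the other 15 groups held 3. All groups share the strain and lack functional Rag2, and the labels do not say which cells presented the peptide. They do not say either that replicates came from separate mice, so the p-values measure the spread between these samples, which may be technical.

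IL-2 is the growth factor that activated T cells secrete. Its receptor is assembled from the beta chain (Il2rb) and the common gamma chain (Il2rg), which together carry the signal, and the alpha chain (Il2ra, also CD25), which raises the affinity for IL-2 and has little signalling role of its own. The common gamma chain is shared with the receptors for IL-4, IL-7, IL-9, IL-15 and IL-21 and binds the kinase JAK3, while the beta chain binds JAK1 and is shared with the IL-15 receptor. The kinases phosphorylate STAT5A and STAT5B, a closely related pair of factors that then enter the nucleus and switch on genes such as Cish and Bcl2l1. In resting CD4 T cells Il2 is nearly silent and Il2ra is low outside regulatory T cells.

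The genes lie at scattered sites of the mouse genome, apart from the STAT5 pair. In mm10 (GRCm38.p6, RefSeq gene spans), Il2 (ENSMUSG00000027720) spans chromosome 3, 37120713 to 37125954, and Il2ra (ENSMUSG00000026770) spans chromosome 2, 11642792 to 11693194. Il2rb (ENSMUSG00000068227) spans chromosome 15, 78479256 to 78511621, and Il2rg (ENSMUSG00000031304) spans chromosome X, 101264385 to 101268255. Jak3 (ENSMUSG00000031805) spans chromosome 8, 71676383 to 71690577. Stat5b (ENSMUSG00000020919) spans chromosome 11, 100780731 to 100859004, and Stat5a (ENSMUSG00000004043) begins 346 bp further on, at 100859351, and ends at 100885169. The STAT5 genes are near-identical over long stretches and the strand setting of the counting is not given in the sources used here, so the division of reads between them is less certain than the count of any other member.

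Depth was 29030 to 10278776 counts a library (median 5436653). The shallowest were those of MCC+GP CD69-lo cells at 24 h, with 237390, 29030 and 301455 counts, and the lowest total elsewhere was 852129. All 11 T cell markers on a fixed list, among them Cd3e and Cd4, were detected in every group. Their sum at 24 h was 1445 to 1929 CPM in MCC+GP CD69-lo cells, 2588 to 2792 in MCC CD69-lo cells, 2088 to 2251 in MCC CD69-hi cells and 3865 to 4056 in NP cells. Transcripts of other cells moved with the groups: the summed level of 15 B cell markers was 1585 to 2711 CPM in MCC CD69-hi cells at 1 h against 231 to 329 CPM in NP cells, and that of 18 dendritic and myeloid markers was 8880 to 12145 CPM in MCC+GP CD69-lo cells at 24 h, 1916 to 2609 in MCC CD69-lo cells and 473 to 847 in NP cells. CPM for single genes means counts scaled to 1000000 per library after TMM normalization. Marker sums, here and below, were scaled to the plain library total without TMM, so they are not on the scale of the gene values. In such bulk samples, fewer cells of a type and less RNA per cell cannot be told apart.

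In the CD69-hi fraction of MCC-treated cells, Il2, Il2ra, Il2rb and Stat5a stood far above NP cells by 24 h, Stat5b fell, and Il2rg and Jak3 differed by less than 0.6 on the log2 scale at each time. In the comparison of MCC CD69-hi with NP cells, 5 of the 7 members passed at 1 h (3 higher, 2 lower), 6 at 6 h (5 higher, 1 lower) and 6 at 24 h (4 higher, 2 lower). Among all genes tested, 29.4% passed at 1 h (12.4% higher, 17% lower), 46.7% at 6 h (23.2% higher, 23.6% lower) and 57.8% at 24 h (29.2% higher, 28.7% lower), so a call by itself is common here and the size of the change says more. The test throughout is edgeR's quasi-likelihood F test with Benjamini-Hochberg adjustment over all genes tested and a threshold of 0.05, and fold changes are log2 values ± SE.

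Il2, the cytokine itself, was close to absent without agonist. At 1 h it stood at 2.75, 15.1 and 7.72 CPM in MCC CD69-hi cells, against 0.614, 0 and 0 CPM in NP cells. The 6 h levels were 116, 137 and 170 CPM in MCC CD69-hi cells and 0 in both NP libraries. At 24 h the levels were 517, 533 and 584 CPM in MCC CD69-hi cells, while all 3 NP libraries again had no count. Every CD69-hi library was thus above every NP library at each time. The 1 h difference rested on 45 counts in MCC CD69-hi cells and 4 in NP cells, a ratio of 27.4 with a 95% counting interval of 10.01 to 105 (adjusted p = 0.000639). With 3 counts set as the limit for the empty NP groups, Il2 was at least 560.0-fold higher in MCC CD69-hi cells at 6 h (adjusted p = 8.48e-12) and at least 3073-fold higher at 24 h (adjusted p = 5.89e-16). These intervals and limits cover counting error only.

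**Figure D1:**
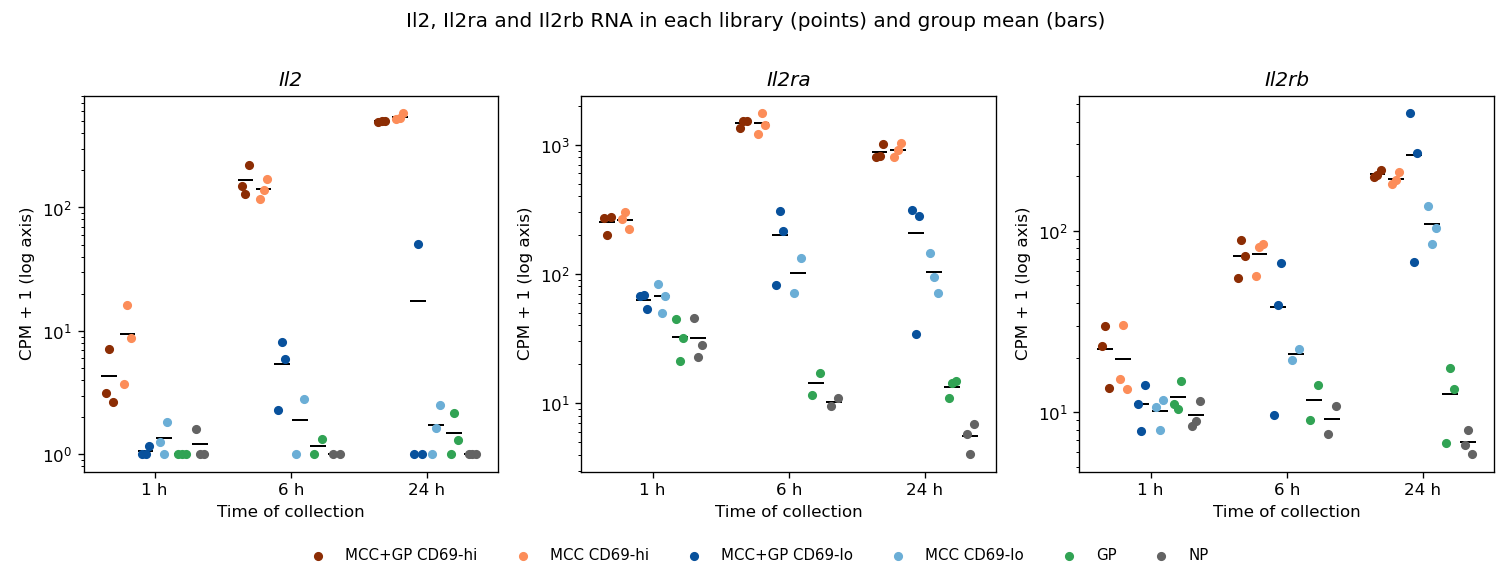
Level of Il2, Il2ra and Il2rb in each library (CPM + 1 on a log axis) by phenotype at 1, 6 and 24 h, with phenotypes from MCC+GP CD69-hi on the left to NP on the right; points are libraries and bars are group means. Il2 reaches 517 to 584 CPM in MCC CD69-hi cells at 24 h with no count in NP cells, and both receptor genes are raised in the CD69-lo fractions at 24 h as well.

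Within the CD69-hi cells Il2 kept climbing through the day. It rose by 4.33 ± 0.47 between 1 and 6 h (adjusted p = 7.41e-09) and by a further 1.95 ± 0.33 between 6 and 24 h (adjusted p = 1.91e-05). The later step missed the threshold in DESeq2, with an adjusted p of 0.15.

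Il2ra, the alpha chain, was already higher at 1 h and had its highest levels at 6 h. At 1 h it had 265, 299 and 220 CPM in MCC CD69-hi cells, against 44.3, 21.7 and 27.4 CPM in NP cells. By 6 h Il2ra had 1207, 1765 and 1432 CPM in MCC CD69-hi cells, against 8.55 and 10.01 CPM in NP cells. At 24 h the levels were 798, 915 and 1028 CPM in MCC CD69-hi cells and 4.82, 3.01 and 5.91 CPM in NP cells. The groups did not overlap at any time. Between 1 and 6 h Il2ra rose by 2.499 ± 0.35 in MCC CD69-hi cells (adjusted p = 3.49e-07) and fell by 1.76 ± 0.46 in NP cells (adjusted p = 0.0064). The differences were 3.05 ± 0.37 (adjusted p = 7.04e-08), 7.30 ± 0.54 (adjusted p = 7.19e-14) and 7.61 ± 0.47 (adjusted p = 2.99e-16) at 1, 6 and 24 h. In MCC CD69-hi cells the 24 h libraries all lay below the 6 h libraries, a difference of -0.68 ± 0.33 that missed the threshold (adjusted p = 0.0993) and passed it when only the compared groups were fitted (adjusted p = 0.00052). Foxp3, the defining factor of regulatory T cells, which carry Il2ra at rest, stood at 0.67 CPM in MCC CD69-hi cells at 24 h, against 5.95 CPM in NP cells; the 9 regulatory T cell markers summed to 146 to 170 CPM in the CD69-hi cells and to 49.4 to 62.3 CPM in NP cells.

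Il2rb, the signalling chain shared with the IL-15 receptor, passed the threshold from 6 h on and stood highest at 24 h. At 1 h it had 14.1, 29.1 and 12.3 CPM in MCC CD69-hi cells, against 7.36, 7.98 and 10.5 CPM in NP cells, a difference of 0.92 ± 0.53 that did not pass (adjusted p = 0.199). That call changed with the tool: DESeq2 gave an adjusted p of 0.029 and the fit of the compared groups alone 0.036. At 6 h Il2rb had 55.5, 80.5 and 83.3 CPM in MCC CD69-hi cells and 6.57 and 9.83 CPM in NP cells. At 24 h it had 180, 189 and 210 CPM in MCC CD69-hi cells and 5.62, 6.95 and 4.85 CPM in NP cells. It was higher by 3.16 ± 0.51 at 6 h (adjusted p = 3.04e-06) and by 5.06 ± 0.47 at 24 h (adjusted p = 1.45e-11), with no overlap at either time.

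Il2rg, the common gamma chain, was already abundant at rest and changed little. It had 280, 343 and 311 CPM in MCC CD69-hi cells at 1 h, against 234, 218 and 202 CPM in NP cells. At 6 h it had 192, 259 and 245 CPM in MCC CD69-hi cells and 170 and 147 CPM in NP cells, and at 24 h 126, 125 and 128 CPM in MCC CD69-hi cells and 118, 117 and 115 CPM in NP cells. The differences were 0.51 ± 0.16 at 1 h (adjusted p = 0.00942), 0.55 ± 0.17 at 6 h (adjusted p = 0.00682) and 0.11 ± 0.15 at 24 h (adjusted p = 0.546). The 6 h call was lost without the second NP library (adjusted p = 0.13). Both groups held less Il2rg at 24 h than at 1 h.

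Set per unit of gene length, the balance of the 3 chains turned over. For this the authors' TPM values, were rescaled to sum to 1000000 per library. Il2ra RNA was 0.443 times Il2rg RNA in MCC CD69-hi cells at 1 h and exceeded it 3.32-fold at 6 h and 3.81-fold at 24 h, while in NP cells the ratio was 0.0746, 0.0311 and 0.0206 at these times. Il2rb RNA was 0.0264, 0.142 and 0.693 times Il2rg RNA in MCC CD69-hi cells and 0.0181, 0.0239 and 0.0225 times in NP cells. In resting cells the common gamma chain was therefore the most abundant receptor transcript of the 3 by a wide margin, and in CD69-hi cells from 6 h on it was the alpha chain. These ratios are descriptions of RNA and were chosen after values had been seen.

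**Figure D2:**
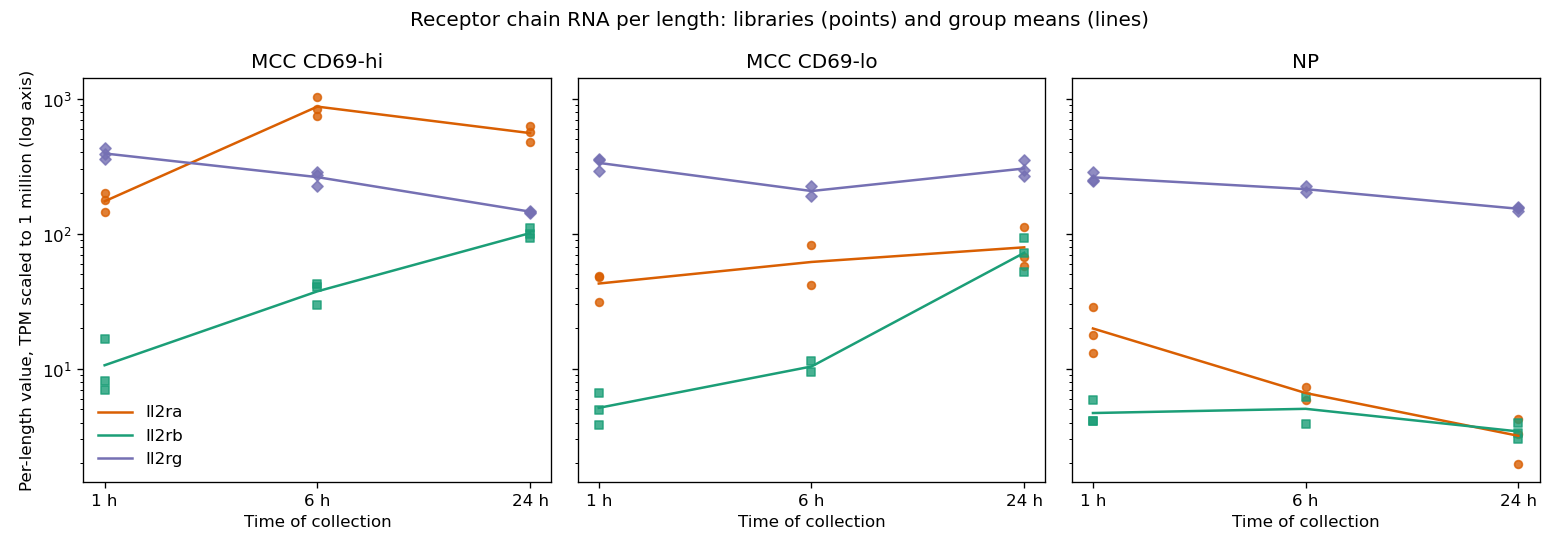
RNA of the 3 receptor chains per gene length (rescaled TPM, log axis) at 1, 6 and 24 h in MCC CD69-hi, MCC CD69-lo and NP cells; points are libraries and lines join group means. The alpha chain overtakes the common gamma chain by 6 h in CD69-hi cells (3.32-fold), whereas in NP cells it falls to 0.0206 times the common gamma chain at 24 h.

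Jak3, the kinase bound to the common gamma chain, went the other way, by a small amount. It had 182, 254 and 222 CPM in MCC CD69-hi cells at 1 h, against 231, 260 and 276 CPM in NP cells. At 6 h it had 133, 124 and 153 CPM in MCC CD69-hi cells and 175 and 209 CPM in NP cells, and at 24 h 244, 265 and 259 CPM in MCC CD69-hi cells and 362, 371 and 355 CPM in NP cells. The groups overlapped at 1 h and not later. The difference was -0.49 ± 0.22 at 6 h, which missed the threshold (adjusted p = 0.0692) and passed it in 5 of 13 alternatives, among them the replicate block (adjusted p = 0.0067) and DESeq2 (adjusted p = 0.035), and -0.50 ± 0.20 at 24 h (adjusted p = 0.0287). The 24 h call was lost without the first CD69-hi library (adjusted p = 0.067). Jak3 RNA rose in both groups between 6 and 24 h, by 0.90 ± 0.20 in MCC CD69-hi cells (adjusted p = 0.00033) and by 0.92 ± 0.23 in NP cells (adjusted p = 0.0143).

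The STAT5 genes, which transmit the signal to the nucleus, moved apart after 1 h. At 1 h Stat5a had 154, 136 and 105 CPM in MCC CD69-hi cells, against 414, 408 and 386 CPM in NP cells. The 6 h values were 336, 259 and 298 CPM in MCC CD69-hi cells and 136 and 151 CPM in NP cells. At 24 h it had 381, 431 and 387 CPM in MCC CD69-hi cells and 66.2, 67.1 and 63.1 CPM in NP cells. Stat5a was thus below every NP library at 1 h and above every NP library afterwards. The difference was -1.62 ± 0.17 at 1 h (adjusted p = 6.21e-11), 1.05 ± 0.19 at 6 h (adjusted p = 4.23e-06) and 2.61 ± 0.18 at 24 h (adjusted p = 1.24e-19).

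Stat5b was lower in CD69-hi cells at every time. It had 309, 235 and 284 CPM in MCC CD69-hi cells at 1 h, against 1179, 1094 and 990 CPM in NP cells. At 6 h it had 153, 127 and 150 CPM in MCC CD69-hi cells and 749 and 815 CPM in NP cells, and at 24 h 182, 180 and 172 CPM in MCC CD69-hi cells and 421, 416 and 415 CPM in NP cells. It fell by 1.97 ± 0.17 at 1 h (adjusted p = 4.38e-14), by 2.45 ± 0.18 at 6 h (adjusted p = 7.5e-18) and by 1.23 ± 0.16 at 24 h (adjusted p = 2.46e-09). The groups were separate at all 3 times.

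**Figure D3:**
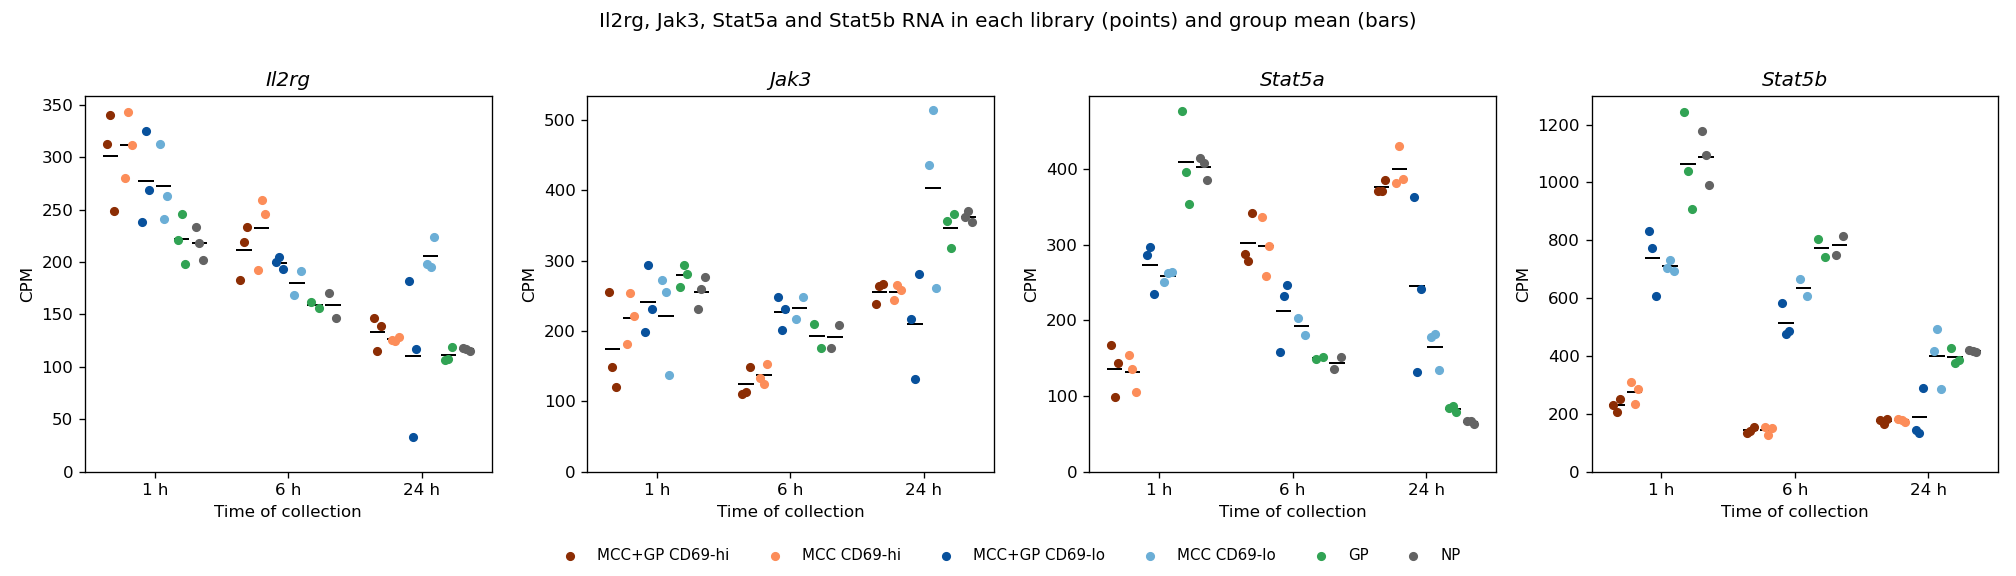
Level of Il2rg, Jak3, Stat5a and Stat5b in each library (CPM) by phenotype at 1, 6 and 24 h, with MCC+GP CD69-hi on the left and NP on the right; points are libraries and bars are group means. Stat5a in MCC CD69-hi cells is below NP at 1 h (105 to 154 against 386 to 414 CPM) and above it at 24 h (381 to 431 against 63.1 to 67.1 CPM), while Stat5b is below NP at all 3 times.

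As a share of the combined STAT5 RNA per unit length, Stat5a made up 41.8% in MCC CD69-hi cells at 1 h, 75.8% at 6 h and 77.2% at 24 h. In NP cells the share was 35.9%, 21.7% and 19.2% at these times. The summed level of both genes was 407, 441 and 578 CPM in MCC CD69-hi cells and 1491, 926 and 483 CPM in NP cells. Because reads of the pair may have been divided imperfectly, the sum is the safer of these quantities. The share was computed after the opposite movement of the genes had been seen, and it is a description.

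**Figure D4:**
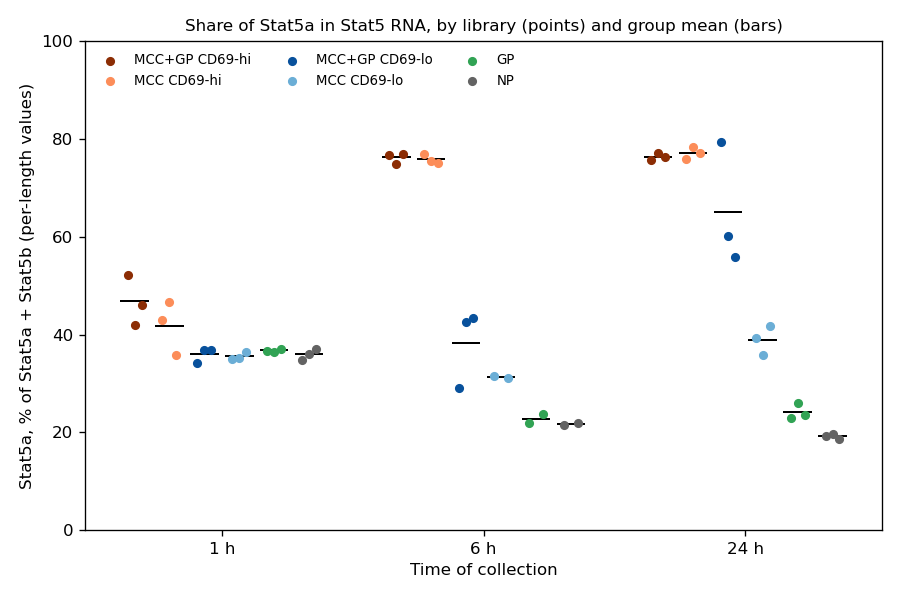
Stat5a as a percentage of Stat5a plus Stat5b RNA per gene length (0 to 100) in each library by phenotype at 1, 6 and 24 h; points are libraries and bars are group means. The mean share at 24 h is 77.2% in MCC CD69-hi cells, 38.9% in MCC CD69-lo cells and 19.2% in NP cells.

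The MCC CD69-hi libraries of 1 h carried more B cell RNA than NP libraries. All 15 B cell markers and all 10 MHC class II genes passed as higher there, and the MHC class II sum was 3099 to 5554 CPM, against 360 to 633 CPM in NP cells. With the B cell level as a covariate the 1 h differences were 3.33 for Il2ra (adjusted p = 5.1e-06), 4.64 for Il2 (adjusted p = 0.0055), -1.49 for Stat5a (adjusted p = 1.8e-06) and -2.02 for Stat5b (adjusted p = 4.5e-10). The slope of that covariate rests on spread within groups, and the B cell sums did not overlap between these groups, so the fit cannot separate the part of B cell RNA. At 24 h the B cell sum was 42.8 to 126 CPM in MCC CD69-hi cells, against 178 to 311 CPM in NP cells, so it moved the other way.

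The groups that also received GP gave the same comparison in libraries that share none of these samples. It carried the same imbalance of B cell RNA at 1 h. The B cell sum was 1387 to 2791 CPM in MCC+GP CD69-hi cells and 239 to 421 CPM in GP cells. The MHC class II sum was 2934 to 6102 CPM in MCC+GP CD69-hi cells and 377 to 783 CPM in GP cells. The part of B cell RNA at 1 h was not tested beyond the covariate. These CD69-hi libraries of 1 h held 930161 to 1105292 counts. MCC+GP CD69-hi cells differed from GP cells in 6 of the 7 members at 1 h (3 higher, 3 lower), in 7 at 6 h (5 higher, 2 lower) and in 5 at 24 h (4 higher, 1 lower), where 33.8%, 46.7% and 58.5% of all genes passed. Il2 had 2.12, 6.19 and 1.68 CPM in MCC+GP CD69-hi cells at 1 h and no count in any GP library, at least 16.9-fold (adjusted p = 0.0152), a call lost without the second of the CD69-hi libraries (adjusted p = 0.098). At 6 h it had 149, 128 and 220 CPM in MCC+GP CD69-hi cells and 0 and 0.343 CPM in GP cells, a count ratio of 915 with an interval of 253 to 7562. At 24 h it had 491, 503 and 499 CPM in MCC+GP CD69-hi cells and 0, 1.18 and 0.319 CPM in GP cells (9.84 ± 0.57, adjusted p = 1.6e-15).

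Il2ra, in the cells that received both peptides, stood furthest above GP cells at 6 h, and Il2rb at 24 h. Il2ra was higher by 2.98 ± 0.38, 6.78 ± 0.52 and 6.15 ± 0.42 at 1, 6 and 24 h (adjusted p = 1.24e-07, 2.14e-13 and 7.18e-15), and Il2rb by 0.90 ± 0.56, 2.73 ± 0.50 and 4.12 ± 0.43 (adjusted p = 0.219, 1.97e-05 and 2.77e-10). Stat5a differed by -1.58 ± 0.18, 1.01 ± 0.19 and 2.18 ± 0.17 (adjusted p = 2.42e-10, 9.41e-06 and 8.59e-17), again below its control at 1 h and above it later. Stat5b fell by 2.21 ± 0.17, 2.44 ± 0.18 and 1.17 ± 0.16 (adjusted p = 1.86e-15, 8.89e-18 and 8.85e-09). Il2rg was higher by 0.44 ± 0.16 at 1 h (adjusted p = 0.0262, lost in 3 of 14 alternatives) and by 0.42 ± 0.17 at 6 h (adjusted p = 0.0426, lost in 6 of 13). The Jak3 difference of -0.68 ± 0.21 at 1 h (adjusted p = 0.0108) was lost under several settings, among them RLE size factors (-0.44, adjusted p = 0.089), the B cell covariate (-0.23, adjusted p = 0.57) and without replicate 3 of the CD69-hi cells (-0.34, adjusted p = 0.28). At 24 h Jak3 was lower in every MCC+GP CD69-hi library than in any GP library, a difference of -0.44 ± 0.20 that missed the threshold (adjusted p = 0.0572) and passed it in 9 of 14 alternatives, among them the replicate block (adjusted p = 0.0067) and DESeq2 (adjusted p = 0.006).

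**Figure D5:**
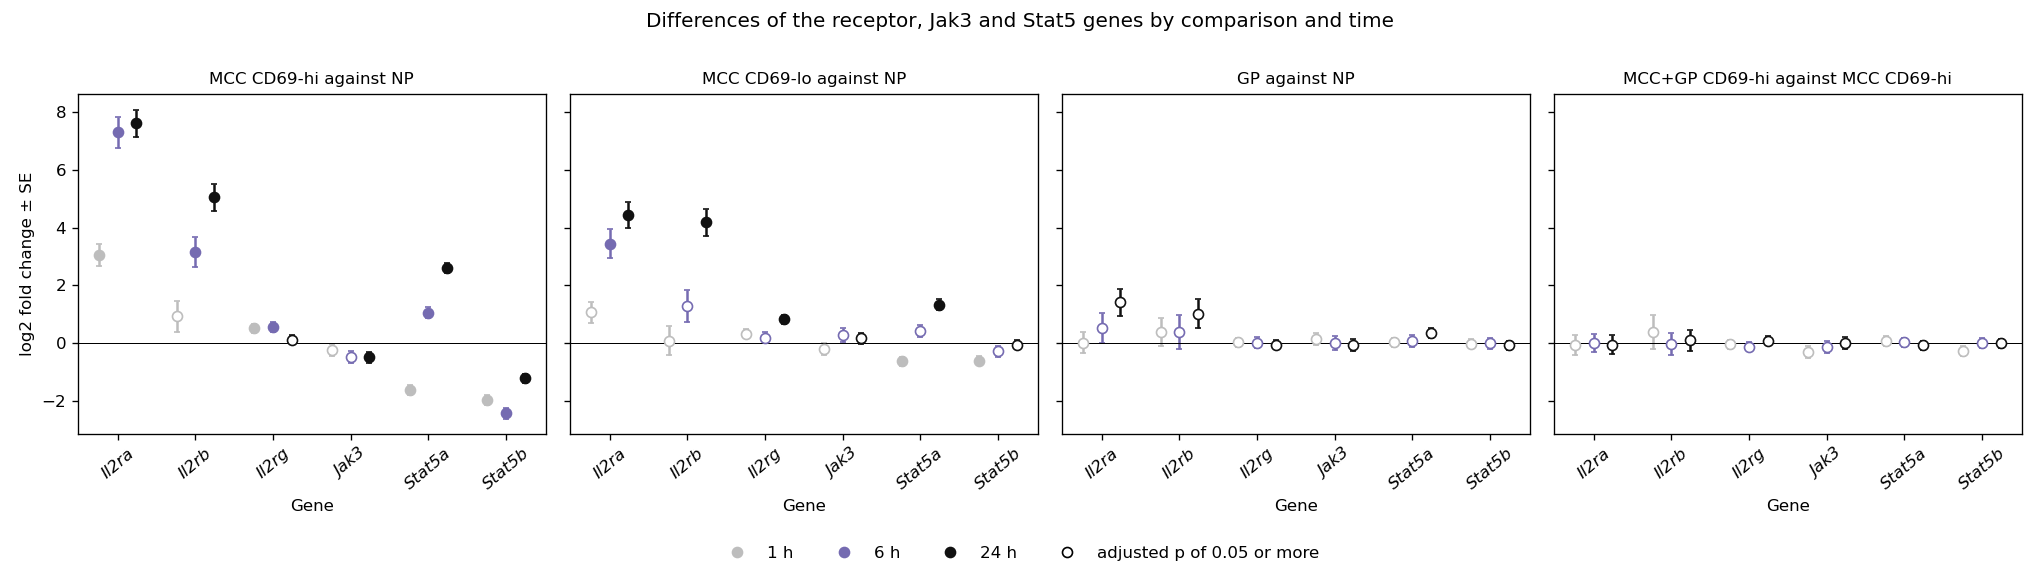
Log2 fold change ± SE of Il2ra, Il2rb, Il2rg, Jak3, Stat5a and Stat5b at 1, 6 and 24 h in 4 comparisons: MCC CD69-hi against NP, MCC CD69-lo against NP, GP against NP, and CD69-hi cells with MCC+GP against those with MCC; open circles missed an adjusted p of 0.05. Il2ra reaches 7.61 in MCC CD69-hi cells at 24 h, and every point of the last pair of comparisons is open.

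MCC CD69-lo cells were sorted as low in CD69 and still differed from NP cells in receptor genes. At 1 h, 2 members passed, both lower, where 3.15% of all genes did (2.72% higher, 0.436% lower). At 6 h 1 passed, higher, of 2.12% of all genes (2.12% higher, 0% lower), and at 24 h 4 passed, all higher, of 18.5% (9.83% higher, 8.67% lower). Il2 itself had 0.256, 0 and 0.820 CPM at 1 h, 0 and 1.83 CPM at 6 h and 0, 0.646 and 1.52 CPM at 24 h in MCC CD69-lo cells, from 5, 11 and 5 counts. No Il2 difference from NP cells passed (adjusted p = 0.99, 0.549 and 0.187), and levels this low are at the limit of what these libraries can show.

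Il2ra in MCC CD69-lo cells had 82.5, 48.7 and 66.9 CPM at 1 h, 70.3 and 132 CPM at 6 h and 143, 93.1 and 70.6 CPM at 24 h. It exceeded every NP library at each time, by 1.07 ± 0.36 (adjusted p = 0.121), 3.45 ± 0.49 (adjusted p = 1.67e-05) and 4.43 ± 0.45 (adjusted p = 7.94e-09), and DESeq2 called the 1 h difference as well (adjusted p = 0.047). Il2rb had 137, 83.4 and 102 CPM in MCC CD69-lo cells at 24 h, against 5.62, 6.95 and 4.85 CPM in NP cells (4.19 ± 0.47, adjusted p = 6.18e-08). Il2rg had 198, 195 and 224 CPM in MCC CD69-lo cells at 24 h, above the 115 to 118 CPM of NP cells (0.82 ± 0.16, adjusted p = 0.000108). Stat5a had 178, 182 and 135 CPM in MCC CD69-lo cells at 24 h, against 66.2, 67.1 and 63.1 CPM in NP cells (1.33 ± 0.17, adjusted p = 6.61e-08). All 3 receptor chains and Stat5a were higher than in NP cells at 24 h, in libraries with almost no Il2 RNA. Within MCC CD69-lo cells Stat5a averaged 259, 192 and 165 CPM at 1, 6 and 24 h, and Il2rg 272, 180 and 206 CPM. Secreted IL-2 is not part of these data, and whether it reached these cells was not tested.

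Stat5a and Stat5b were lower in MCC CD69-lo than in NP cells at 1 h, with differences of -0.64 ± 0.16 (adjusted p = 0.0151) and -0.62 ± 0.16 (adjusted p = 0.0157). Both calls were lost in 5 of 14 alternatives, which were the B cell covariate and the fits without the first or second NP library or without replicate 1 or 3 of the CD69-lo cells. Transcripts of other cells stood beside the 24 h result: 9 of 17 tested dendritic and myeloid markers and 8 of 11 NK and CD8 T cell markers were higher in MCC CD69-lo than in NP cells. The B cell sum was 469.6 to 910 CPM in MCC CD69-lo cells and 178 to 311 CPM in NP cells, and the MHC class II sum was 962 to 1374 CPM in MCC CD69-lo cells and 178 to 503 CPM in NP cells. Ccl22 and Fscn1, genes of mature dendritic cells, had 531 and 472 CPM in MCC CD69-lo cells, against 4.15 and 21.2 CPM in NP cells. The NK and CD8 list, whose cells also carry Il2rb, summed to 77.6 to 175 CPM in MCC CD69-lo cells and to 83.9 to 97.9 CPM in NP cells. With the dendritic and myeloid level as a covariate, the differences were 4.21 for Il2ra (adjusted p = 1.8e-05), 3.91 for Il2rb (adjusted p = 0.00045) and 1.13 for Stat5a (adjusted p = 0.0023). The slope of that covariate rests on spread within groups, and its sums did not overlap between these groups. The fit therefore cannot separate the part of other cells, and no covariate of NK and CD8 markers was fitted.

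Set directly against MCC CD69-lo cells, MCC CD69-hi cells differed in 4 members at 1 h (2 higher, 2 lower; 12.5% of genes), 6 at 6 h (4 higher, 2 lower; 42.4%) and all 7 at 24 h (4 higher, 3 lower; 61.7%). Il2 was the member that separated the fractions most, by 4.25 ± 0.98, 7.16 ± 0.64 and 9.34 ± 0.63 at 1, 6 and 24 h (adjusted p = 0.00339, 6.48e-11 and 8.03e-14). Il2ra was higher in CD69-hi cells by 1.98 ± 0.35, 3.86 ± 0.44 and 3.19 ± 0.37. Il2rb was higher by 0.87 ± 0.38 at 24 h (adjusted p = 0.0459), a call lost in 10 of 14 alternatives, and Il2rg and Jak3 were lower in CD69-hi than in CD69-lo cells at 24 h, with differences of -0.71 ± 0.16 (adjusted p = 0.000122) and -0.66 ± 0.20 (adjusted p = 0.0048). The Jak3 call was lost without the second CD69-lo library (-0.48, adjusted p = 0.058). Transcripts of other cells also differed between these fractions at 24 h. The dendritic and myeloid sum was 506 to 734 CPM in MCC CD69-hi cells and 1916 to 2609 CPM in MCC CD69-lo cells. The B cell sum was 42.8 to 126 CPM in MCC CD69-hi cells and 469.6 to 910 CPM in MCC CD69-lo cells. Their part in these differences was not tested beyond the covariates.

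The self-peptide GP alone changed no member past the threshold at any time. Of all genes, 0% passed at 1 h, 0% at 6 h and 0.00581% at 24 h in the comparison of GP with NP cells. At an unadjusted p under 0.05 there were 0, 0 and 3 members, against 0.802%, 0.732% and 1.1% of all genes, and DESeq2 called 0 at each time. The 3 members at 24 h were Il2ra, Il2rb and Stat5a. Il2ra had 9.96, 13.3 and 13.7 CPM in GP cells and 4.82, 3.01 and 5.91 CPM in NP cells, a difference of 1.41 ± 0.47 with a 95% interval of 0.45 to 2.36 and an adjusted p of 1. Il2rb had 5.75, 16.6 and 12.4 CPM in GP cells and 5.62, 6.95 and 4.85 CPM in NP cells (1.02 ± 0.50), and Stat5a averaged 83.2 ± 4.2 CPM in GP cells and 65.5 ± 2.1 CPM in NP cells (SD, n = 3 each; 0.35 ± 0.17). The GP and NP libraries did not overlap for Il2ra and Stat5a and overlapped for Il2rb. The share of all genes without such overlap was not computed, so no conclusion is drawn from this. In the mean of the 3 times 0 members passed (0% of genes), 1 had an unadjusted p under 0.05, which was Il2ra at 0.64 with an interval of 0.11 to 1.18, against 1.16% of genes, and DESeq2 called 0. Il2 could not be judged in this mean, because at each time either the GP or the NP cells had no Il2 count. At 24 h the marker sums of other cells covered like ranges in both groups, 529 to 825 CPM in GP cells and 473 to 847 CPM in NP cells for the dendritic and myeloid list.

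GP added to MCC changed no member in CD69-hi cells either. Between MCC+GP CD69-hi and MCC CD69-hi cells, 0 of 7 members passed at 1, 6 and 24 h, where 0.68%, 0% and 0% of all genes did. No member had an unadjusted p under 0.05 at any time, against 16.4%, 0.976% and 0.715% of all genes, and DESeq2 called none. Averaged over the 3 times, 0 members passed (0.0116% of genes; unadjusted 0 members, against 7.04% of genes; DESeq2 called 0), and the difference was -0.33 for Il2 with a 95% interval of -1.05 to 0.38, and -0.04 for Il2ra with an interval of -0.43 to 0.35. It was 0.14 for Il2rb (-0.39 to 0.67), -0.03 for Il2rg (-0.21 to 0.15), -0.15 for Jak3 (-0.39 to 0.09), -0.00 for Stat5a (-0.20 to 0.19) and -0.10 for Stat5b (-0.29 to 0.09). The intervals are narrowest for Il2rg, Stat5a and Stat5b and widest for Il2 and Il2rb. A test of whether the GP difference itself changed between activated and resting cells called 0 members at each time (0.0232%, 0% and 0% of genes), with 0, 0 and 1 members at an unadjusted p under 0.05 (9.83%, 0.941% and 0.999% of genes) and 0 called by DESeq2. Il2 could not be judged in that test, because at each time either the GP or the NP cells had no Il2 count.

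The CD69-lo fraction was the place where GP and MCC together differed from MCC alone, in the shallowest libraries of the series. MCC+GP CD69-lo and MCC CD69-lo cells differed in 0 members at 1 h and 6 h (0% and 0% of genes; unadjusted 0 and 2 members, against 0.715% and 5.64% of genes; DESeq2 called 0) and in 6 at 24 h (19.3% of genes). Il2ra had 312, 33.1 and 278 CPM in MCC+GP CD69-lo cells at 24 h, against 143, 93.1 and 70.6 CPM in MCC CD69-lo cells (1.34 ± 0.41, adjusted p = 0.0184). Il2rb had 446, 66.1 and 268 CPM in MCC+GP CD69-lo cells, against 137, 83.4 and 102 CPM in MCC CD69-lo cells (1.53 ± 0.43, adjusted p = 0.0111). The low value in both genes is the library of 29030 counts, and without it the differences were 1.60 for Il2ra (adjusted p = 0.0049) and 1.79 for Il2rb (adjusted p = 0.0036). Without replicate 1 of the MCC+GP CD69-lo cells both calls were lost, at 1.14 for Il2ra (adjusted p = 0.119) and 1.07 for Il2rb (adjusted p = 0.174). The Il2ra call was also lost without replicate 3 of those cells (adjusted p = 0.075) and without replicate 2 or 3 of the MCC CD69-lo cells (adjusted p = 0.052 and 0.074).

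In the same comparison Stat5a was higher by 0.73 ± 0.20 (adjusted p = 0.00616), while Stat5b, Jak3 and Il2rg were lower, with differences of -0.95 ± 0.20 (adjusted p = 0.000299), -0.80 ± 0.24 (adjusted p = 0.0154) and -0.63 ± 0.20 (adjusted p = 0.0225). The NK and CD8 marker sum was 207 to 388 CPM in MCC+GP CD69-lo cells and 77.6 to 175 CPM in MCC CD69-lo cells, and its part in the Il2rb values was not tested. The dendritic and myeloid sum was 8880 to 12145 CPM in MCC+GP CD69-lo cells and 1916 to 2609 CPM in MCC CD69-lo cells. With that sum as a covariate 1 of the 6 calls held, that of Stat5b. The slope of that covariate rests on spread within groups, and its sums did not overlap between these groups. The fit therefore cannot separate the part of other cells. In a fit of the compared groups alone 2 of the 6 calls held. The Jak3 and Il2rg calls were lost in 9 of 13 alternatives each, among them RLE size factors (adjusted p = 0.083 and 0.144), DESeq2 (0.064 and 0.135), the B cell covariate (0.172 and 0.072) and the fit without the library of 29030 counts (0.080 and 0.094). The Stat5a call was also lost without replicate 1 of the MCC+GP CD69-lo cells (0.42, adjusted p = 0.232). Against GP cells, MCC+GP CD69-lo cells differed in 1 member at 1 h (2.18% of genes), 4 at 6 h (10.3%) and 4 at 24 h (33.7%). Il2 at 6 h had 1.28, 7.13 and 4.93 CPM in MCC+GP CD69-lo cells and 0 and 0.343 CPM in GP cells, from 60 and 2 counts, a ratio of 21.9 with an interval of 5.82 to 185 (adjusted p = 0.0195, lost in 5 of 13 alternatives). At 24 h the Il2 RNA of this fraction was 3 counts in 1 library and 0 in the others.

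Cells kept without peptide were not still. Between 1 and 6 h, 2 members changed in NP cells (16.5% of genes) and between 6 and 24 h 3 did (2.94% of genes). Stat5a fell at each step, by 1.49 ± 0.19 (adjusted p = 3.18e-08) and by 1.13 ± 0.19 (adjusted p = 3.25e-05) and Il2ra fell at the earlier step. Stat5b fell by 0.91 ± 0.18 at the later step (adjusted p = 0.000637), and Jak3 rose there. In MCC CD69-hi cells all 7 members changed between 1 and 6 h (40.6% of genes) and 5 between 6 and 24 h (38.2% of genes). In MCC CD69-lo cells 1 member changed at the earlier step, Il2rg, which fell by 0.60 ± 0.17 (16.8% of genes), and 3 at the later step (5.95% of genes): Il2rb rose by 2.40 ± 0.48 (adjusted p = 0.00139), Jak3 by 0.79 ± 0.23 (adjusted p = 0.028), and Stat5b fell by 0.67 ± 0.18 (adjusted p = 0.0129).

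Whether the agonist effect changed with time was tested directly as the difference of differences. From 1 to 6 h the gap between MCC CD69-hi and NP cells changed for 3 members (29.8% of genes): Il2ra, Il2rb and Stat5a. From 6 to 24 h it changed for 3 (22.9% of genes): Il2rb, Stat5a and Stat5b. Il2 could not be judged at either step, because NP cells had no Il2 count at 6 and 24 h. The Stat5a gap moved upward by 2.67 ± 0.26 and then by 1.56 ± 0.25, while that of Il2rg and Jak3 showed no change past the threshold at either step. For Il2rg the later step passed in DESeq2 (-0.54, adjusted p = 0.011) and when only the compared groups were fitted (-0.47, adjusted p = 0.021).

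Other genes of the pathway were taken from fixed lists. In MCC CD69-hi against NP cells 12.4% of all genes rose and 17% fell at 1 h, 23.2% and 23.6% at 6 h, and 29.2% and 28.7% at 24 h, with median differences of -0.05, 0.00 and -0.14. The receptors that share the common gamma chain diverged. Of 5, 1 rose and 3 fell in MCC CD69-hi against NP cells at 1 h, 3 rose and 1 fell at 6 h, and 2 rose and 1 fell at 24 h, with list medians of -0.49, 1.497 and 0.10. Il7r, the alpha chain of the receptor for the survival cytokine IL-7, averaged 4.603 CPM in MCC CD69-hi cells at 24 h and 450 CPM in NP cells, a fall of 6.60 ± 0.41 (adjusted p = 2.71e-16), after falls of 3.17 and 5.28 at 1 and 6 h. Il15ra, which presents IL-15 to the beta and gamma chains, averaged 56.3 CPM in MCC CD69-hi cells at 24 h and 6.51 CPM in NP cells (3.09 ± 0.33, adjusted p = 1.48e-11). Il21r rose by 0.58 ± 0.19 (adjusted p = 0.00724). Of 3 tested cytokines of the family, Il21 had 388 counts in MCC CD69-hi cells at 24 h and 0 in NP cells (adjusted p = 3.83e-09), and Il4 averaged 0.383 CPM in MCC CD69-hi cells and 1.84 CPM in NP cells, so that it fell by 2.20 ± 0.94 (adjusted p = 0.0403).

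Of 8 other Jak and Stat genes, 2 rose and 2 fell at 1 h, 2 rose and 6 fell at 6 h, and 2 rose and 3 fell at 24 h in MCC CD69-hi against NP cells, with medians of -0.20, -1.28 and -0.17. Jak1, the kinase of the beta chain, fell by 1.87 ± 0.18 at 24 h (adjusted p = 5.48e-14), and Jak2, used by other cytokine receptors, rose by 1.13 ± 0.17 (adjusted p = 1.04e-07). Stat2, which serves interferon receptors, fell by 2.72 ± 0.37 at 24 h. Among 16 inhibitors of the pathway, 7 rose and 3 fell at 1 h, 8 rose and 4 fell at 6 h, and 5 rose and 3 fell at 24 h, with medians of 0.17, 0.47 and 0.25. Cish, a STAT5-induced brake on the receptor, averaged 65.5 CPM in MCC CD69-hi cells at 24 h and 1.83 CPM in NP cells (5.10 ± 0.48, adjusted p = 1.07e-11), Ptpn6, a phosphatase, rose by 1.62 ± 0.15, and Socs3, an inhibitor best known for blocking IL-6 receptor signalling, fell by 3.89 ± 0.43.

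Genes known as STAT5 targets rose more often than they fell. Of 18, 8 rose and 4 fell at 1 h, 9 rose and 5 fell at 6 h, and 9 rose and 2 fell at 24 h in MCC CD69-hi against NP cells, with list medians of 0.27, 1.35 and 0.79 against -0.05, 0.00 and -0.14 for all genes. Bcl2l1, which encodes the survival protein BCL-XL, averaged 397 CPM in MCC CD69-hi cells at 24 h and 6.07 CPM in NP cells (6.02 ± 0.29, adjusted p = 1.26e-22). Ccnd2, a cyclin of the early cell cycle, averaged 1603 CPM in MCC CD69-hi cells and 97.7 CPM in NP cells (4.03 ± 0.21, adjusted p = 5.99e-24). Il12rb1, a chain of the IL-12 receptor, rose by 8.12 ± 0.62 and Lta, lymphotoxin alpha, by 4.52 ± 0.39, while Prdm1, which encodes the repressor Blimp-1, fell by 4.29 ± 0.44. Fasl, the death ligand, rose by 2.14 ± 0.43 (adjusted p = 3.63e-05) and Il12rb2, the other chain of the IL-12 receptor, by 2.15 ± 0.52 (adjusted p = 0.000475). Several of these genes also respond to T cell receptor signalling directly, and the inputs cannot be told apart here.

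In MCC CD69-lo cells, where Il2 was nearly absent, 13 of the 18 STAT5 targets rose and 1 fell at 24 h against NP cells, with a median of 2.39 against 0.00 for all genes, of which 9.83% rose and 8.67% fell. Dendritic and myeloid, B cell, MHC class II and T cell marker sums also differed between these libraries without overlap, as given above, and their part in the target counts was not tested. Cish averaged 60.9 CPM in MCC CD69-lo cells and 1.83 CPM in NP cells (4.98 ± 0.50, adjusted p = 3.45e-09). The CD69-hi cells of that time had 65.5 CPM. Bcl2l1 averaged 45.8 CPM in MCC CD69-lo cells and 6.07 CPM in NP cells (2.80 ± 0.30), and Pim1, a survival kinase, averaged 673 CPM in MCC CD69-lo cells and 223 CPM in NP cells (1.59 ± 0.19). Socs2 and Socs1, further STAT-induced inhibitors, rose by 3.77 ± 0.49 and 2.73 ± 0.59. Il7r fell by 1.46 ± 0.31 (adjusted p = 0.000917), and Il4ra, the IL-4 receptor chain, rose by 2.47 ± 0.31. Bcl2l1 and Ccnd2 were higher in MCC CD69-hi than in MCC CD69-lo cells at 24 h, by 3.22 ± 0.25 and 2.41 ± 0.20.

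Regulators of Il2 itself were examined in 3 lists. Of 11 activators of Il2 transcription, 6 rose and 2 fell at 1 h, 4 rose and 4 fell at 6 h, and 3 rose and 3 fell at 24 h in MCC CD69-hi against NP cells, with medians of 0.51, -0.01 and 0.34. The NF-kB genes Rel and Nfkb1 led at 1 h, with rises of 2.11 ± 0.19 and 1.88 ± 0.23, and were still higher at 24 h by 1.86 ± 0.19 and 2.68 ± 0.24. Nfatc1 rose by 1.80 ± 0.17 at 1 h while Nfatc2, a form present in resting T cells, fell by 1.39 ± 0.24. Of 7 repressors, 6 fell and 1 rose at 24 h, with a median of -1.49 against -0.14 for all genes. Tob1, an antiproliferative factor, fell by 2.20 ± 0.24, Ikzf3 (Aiolos) fell by 1.49 ± 0.23 and Foxp3 fell by 3.10 ± 0.65. Of 11 RNA-binding regulators of cytokine RNA, 5 rose and 5 fell at 24 h, with a median of 0.22. Elavl1 (HuR), which stabilizes AU-rich messages, rose by 1.61 ± 0.14, and Zfp36 (tristetraprolin), which destabilizes them, fell by 2.01 ± 0.31 at 24 h after a rise of 1.68 ± 0.31 at 1 h. No gene of these lists passed in GP against NP cells at 24 h, where 0.00581% of all genes did.

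Across the 18 groups, ordered by mean CPM, Il2 was highest in MCC CD69-hi cells at 24 h (545 ± 35), then MCC+GP CD69-hi cells at 24 h (498 ± 6.5), then both CD69-hi groups of 6 h, which overlapped (166 ± 48 and 141 ± 27). Il2ra was highest in both CD69-hi groups of 6 h and lowest in NP cells at 24 h. Il2rb was highest in MCC+GP CD69-lo cells at 24 h (260 ± 190, SD, n = 3), a group that overlapped MCC+GP CD69-hi cells of that time (205 ± 9.6). The NK and CD8 marker sum was also highest in MCC+GP CD69-lo cells at 24 h (207 to 388 CPM). Il2rg was highest in the CD69-hi groups of 1 h and Jak3 in MCC CD69-lo cells at 24 h (404 ± 130), which overlapped NP cells at 24 h (363 ± 8.0). Stat5a was highest in GP and NP cells at 1 h and MCC CD69-hi cells at 24 h, each of which overlapped the next, and Stat5b was lowest in both CD69-hi groups of 6 h.

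Over these 18 group means on the log2 CPM scale, Pearson's r was 0.88 between Il2 and Il2ra, 0.77 between Il2 and Il2rb, -0.82 between Il2 and Stat5b and -0.05 between Stat5a and Stat5b. The groups share controls, time and depth, so these are descriptions. Among 13041 genes with a group mean of at least 5 CPM, the 3 most like Il2 were 1110038B12Rik, Tomm5 and Mogs (each r = 0.98), those most like Il2ra were Baz1a (0.98), Shfm1 (0.97) and Ehd1 (0.96), and those most like Il2rb were Rps27l (0.96), Txn1 (0.96) and Hbegf (0.95). Hbegf met the 5 CPM limit only through the shallow MCC+GP CD69-lo group of 24 h (21.9 ± 19.0 CPM, SD), where Il2rb was highest too. Il2rg was most like Gm37790 (0.98), Ppp1r16b (0.98) and Tnfrsf1b (0.96), Jak3 most like Pfkm (0.90), Zmynd8 (0.88) and Cnpy4 (0.86), Stat5a most like Htt (0.86), Sod1 (0.85) and Rbm12 (0.85), and Stat5b most like Polg2 (0.99), Ugcg (0.98) and Tnip1 (0.97). Without the shallow MCC+GP CD69-lo group of 24 h the leading match changed for Il2, to Pa2g4, for Il2ra, to Myo5a, and for Stat5a, to Fxr1.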

How the data were processed

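Poly-adenylated RNA of 51 sorted samples was sequenced as paired reads. The submitters' processing notes name bcl2fastq 2.20, STAR 2.6.1c, HTSeq 0.9.1 and mm10, with no roles; the annotation release, strand setting and treatment of multi-mapping reads are not given in the sources used here. The authors deposited raw counts per gene, used for every test, and TPM values, whose columns sum to 9986 to 9996 and were rescaled to 1000000 for comparisons between genes. Counts were normalized with TMM, filtered with filterByExpr by group and fitted in 1 model with a coefficient for each of the 18 groups (edgeR 4.0.16 quasi-likelihood F test, robust, two-sided; limma 3.58.1, R 4.3.3), with Benjamini-Hochberg adjustment over 17211 genes at 0.05. Confidence intervals are 95%. The test was tried on counts simulated for MCC CD69-hi and NP cells of 6 h only, with a fixed dispersion. That trial does not cover the fit of all 18 groups or the shallow libraries.

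Groups come from the labels' sorting phenotype and time. Precision follows depth: it is lowest in the 3 libraries of 29030 to 301455 counts. Replicates within groups differed by more than sampling noise (chi-square per degree of freedom 4.17 to 21.7 over all pairs within groups), so none was merged. The members and the gene lists were chosen with earlier results of these data known. Named genes are the 7 members, the 3 most correlated genes of each, and up to 4 called genes with the smallest adjusted p per list and comparison, plus called list genes over 4-fold in CD69-high cells at 24 h. Ccl22 and Fscn1, from the dendritic list, were named after their values were seen. A gene of the list of other Jak and Stat genes is not reported here.

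Alternatives were DESeq2 1.42.0, RLE size factors, a fit without the filter, a fit of the compared groups alone, a replicate block by a plate round inferred from codes at the end of the sample titles, B cell markers as a covariate, leaving out the shallow MCC+GP CD69-lo group of 24 h, and leaving out each library in turn. A covariate of dendritic and myeloid markers was added after seeing the data.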

Additional observations from a re-analysis of the deposited data

Results flagged for a closer look

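The agonist effect, MCC CD69-hi minus NP, was tested for a change between times in 1 model, and 6 such changes of members passed the threshold (edgeR quasi-likelihood, Benjamini-Hochberg adjusted over all genes). Il2 could not be judged in this way, because NP cells had no Il2 count at 6 and 24 h. Between 1 and 6 h the Il2ra effect grew by 4.26 ± 0.58 on the log2 scale (adjusted p = 3.85e-07). Il2ra RNA rose in CD69-hi cells over those hours and fell in NP cells, so both groups moved the gap. The Stat5a effect grew by 2.67 ± 0.26 (adjusted p = 1.88e-12) and turned from lower to higher. The Il2rb effect grew by 2.24 ± 0.73 (adjusted p = 0.0172), and this call was lost without NP 6 h replicate 1 or MCC CD69-hi 1 h replicate 3.

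Between 6 and 24 h the Stat5a effect grew by a further 1.56 ± 0.25 (adjusted p = 2.24e-06). Stat5a in NP cells fell again, and its range in MCC CD69-hi cells was 259 to 336 CPM at 6 h and 381 to 431 CPM at 24 h. The Stat5b effect changed by 1.22 ± 0.24 (adjusted p = 9.5e-05): Stat5b was lower in CD69-hi cells at both times, and the gap narrowed. NP cells came down, and MCC CD69-hi cells had 127 to 153 CPM at 6 h and 172 to 182 CPM at 24 h. The Il2rb effect grew by 1.90 ± 0.68 (adjusted p = 0.0401), a call lost in 12 of 19 alternatives. The 1 h CD69-hi libraries differ from the later ones in their B cell RNA, whose part in these changes was not tested beyond the covariate.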

How the results depend on the processing

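No called difference of a member changed sign under any alternative tried. The number of members called moved by more than 1.5 times in these cases. MCC CD69-lo against NP at 1 h gave 0 calls instead of 2 with the B cell covariate and 0 to 2 with 1 library left out, and at 6 h it was 2 instead of 1 with only the groups compared. MCC+GP CD69-lo against GP at 1 h, with 1 call, gave 2 with RLE size factors, the plate-round block, DESeq2 or without the shallow libraries, 0 without the filter or with the B cell covariate, and 0 to 2 with a library left out; at 6 h, with 4 calls, it gave 1 with the dendritic and myeloid covariate and 1 to 5 with a library left out; at 24 h that covariate left 2 of 4. MCC+GP CD69-lo against MCC CD69-lo at 24 h, with 6 calls, gave 1 with that covariate, 2 with only the groups compared and 2 to 5 with a library left out. NP at 6 h against 1 h, with 2 calls, gave 4 with the block, the dendritic covariate, DESeq2 or without the shallow libraries, 5 with only the groups compared, and 1 to 2 with a library left out. MCC CD69-hi at 24 h against 6 h, with 5 calls, gave 2 with the B cell covariate. MCC CD69-lo at 6 h against 1 h, with 1 call, gave 2 with the block or without the shallow libraries, 0 with the dendritic covariate, 3 with only the groups compared and 0 to 1 with a library left out, and at 24 h against 6 h, with 3 calls, 1 with only the groups compared and 1 to 2 with a library left out. The change of the agonist effect from 1 to 6 h, with 3 calls, gave 5 with only the groups compared or DESeq2. In these cases the cause was not tested. Also, 2 uncalled differences of MCC+GP CD69-lo against GP at 24 h changed sign: Jak3, at -0.58, was 0.68 with the dendritic covariate, and Il2rg, at 0.26, was -0.10 to 0.45 with 1 library left out, the lowest without MCC+GP CD69-lo replicate 1. Of 112 differences called in no fit, 205 of 1785 alternative values had the other sign, none above 0.57 in size. RLE size factors moved the median of all genes by -0.15 in MCC CD69-hi against NP and -0.23 against MCC CD69-lo at 24 h, by 0.21 in MCC+GP CD69-hi against GP at 1 h, and by 0.22 and 0.28 in MCC+GP CD69-lo against MCC CD69-lo and GP at 24 h. The labels give no replicate numbers and name no round. Sample titles end in a letter and a digit, read here as a plate well, and a plate round was inferred from the order of these codes: libraries of the same round deviated together on average (mean r = 0.18, against -0.08 between rounds), in 230 of 366 pairs with r over 0.1, and 44 of 51 libraries correlated best with their own round. As not every pair did, the round was used only as this alternative block. Depth limits Il2 outside the CD69-hi groups, where groups hold 0 to 60 counts, and in the CD69-hi groups of 1 h, with 45 counts (MCC) and 10 (MCC+GP). It also limits every member in MCC+GP CD69-lo cells at 24 h.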

Other observations

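Il2rb and Il2ra did not keep step in the CD69-lo fractions. Per unit of length, Il2ra RNA was 8.43 times Il2rb RNA in MCC CD69-lo cells at 1 h, 5.81 times at 6 h and 1.11 times at 24 h, and in MCC CD69-hi cells the ratio was 18.1, 23.6 and 5.49. In NP cells it was 4.40, 1.35 and 0.970. The ratio was thus lower at 24 h than at 1 h in each of these 3 phenotypes, and at 24 h the CD69-lo cells lay near the NP cells in this ratio although both RNAs were more abundant. In MCC+GP CD69-lo cells at 24 h Il2rb RNA was 1.02 ± 0.10 times Il2rg RNA (SD, n = 3), the highest such ratio of any group, in libraries of few counts. These libraries also had the highest NK and CD8 marker sum of any group.

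Gzmb, which encodes a cytotoxic granule protease and is among the genes that IL-2 signalling is known to raise, had 0 counts in all NP libraries of 24 h and averaged 12.9 ± 5.7 CPM in MCC CD69-hi cells and 114 ± 79 CPM in MCC CD69-lo cells (SD, n = 3 each). Il15, the other cytokine that uses the IL-2 receptor beta and gamma chains, averaged 10.7 ± 7.2 CPM in MCC CD69-lo cells at 24 h, 0.137 CPM in MCC CD69-hi cells and 0.164 CPM in NP cells, from 52, 3 and 3 counts. Of the markers of other cells, 9 of 17 dendritic and myeloid and 8 of 11 NK and CD8 T cell genes were higher in the same CD69-lo libraries than in NP cells, and their part in the Il15 and Gzmb values was not tested.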
